A study of Mus musculus with 12 samples.

Results

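The genes of glycolysis and of the hypoxia response were followed in regulatory T cells (Tregs) of mice carrying a mutation of Gclc, the catalytic subunit of the enzyme that starts glutathione synthesis. The set held 36 genes out of 49671 in the deposited counts, named by symbol: 23 glycolytic genes (glucose transporters, glycolytic enzymes, their regulators and lactate transporters) and 13 genes of the hypoxia-inducible factor (HIF) pathway. Gene counts came from stranded mRNA sequencing of 12 libraries, 3 in each of 4 groups: mutant iTregs and WT iTregs, differentiated in vitro from naive CD4 T cells, and mutant nTregs and WT nTregs, sorted directly from the animals. All mice were C57BL/6 and 8 weeks old, the genotype was given as Gclc mutant or WT, and the labels do not say in which cells the mutation acts. Mutant libraries carry the numbers 1, 2 and 4 and WT libraries the numbers 1, 2 and 3. The labels do not tell whether replicate libraries stem from different mice or cultures. P-values therefore reflect only how far the samples themselves vary, which may be technical variation.

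Glycolysis splits glucose into pyruvate and yields ATP without oxygen, and lactate dehydrogenase turns pyruvate into lactate, which leaves the cell through monocarboxylate transporters. HIF is a transcription factor whose alpha subunit is hydroxylated by the EGLN enzymes and degraded when oxygen is present. When oxygen is low it induces most glycolytic genes and also genes that restrain mitochondria, such as the pyruvate dehydrogenase kinase Pdk1 and the mitophagy receptors Bnip3 and Bnip3l. Activated effector T cells depend strongly on glycolysis, whereas Tregs are known for a greater reliance on mitochondrial oxidation.

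Library totals lay between 28707579 and 39886130 counts, and all 36 genes passed the filter on low counts, with 17977 genes tested in all. Gclc fell in the mutants of both kinds without overlap, at -0.81 ± 0.07 (log2 fold change ± SE, 3 libraries a group) in nTregs and -1.46 ± 0.08 in iTregs. Foxp3, the factor that defines Tregs, was present in every library and was lower in the mutants of both kinds without overlap. It was at 135 to 217 CPM in mutant nTregs, against 559 to 610 CPM in WT nTregs. In iTregs it was at 75.5 to 107 CPM in mutants, against 287 to 300 CPM in WT. The library labelled nTreg mutant 1 stood apart. The summed level of 10 CD8 T and NK cell markers was 1356 CPM in it, 197 and 171 CPM in nTreg mutant libraries 2 and 4, and 71.1 to 83.4 CPM in WT nTregs. CPM are counts scaled by edgeR to a common library size, with effective library sizes from the trimmed mean of M values (TMM). In bulk libraries, fewer cells of a type and less RNA per cell cannot be told apart.

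HIF binds the letters ACGTG or GCGTG, so the promoters of the genes on which the results turn are shown first: a pair that rose in mutants of both kinds or in nTregs (Pgk1, Ldha), another riser without either motif in its window (Tpi1), the HIF targets that fell in mutant nTregs (Pdk1, P4ha1), and the hydroxylase gene that rose in mutant iTregs (Egln3). Each is a RefSeq window (GRCm38.p6) from 250 bases before to 50 bases after a transcription start, 5′ to 3′ on the gene's strand. Ldha and Pdk1 have 2 windows each, of which 1 is shown. The window not shown holds GCGTG but not ACGTG for Ldha, and neither motif for Pdk1. Both motifs and their reverse complements (CACGT for ACGTG and CACGC for GCGTG) are in capitals. Overlapping matches run together, so that CACGTG, the E-box, holds ACGTG on both strands. The windows lie at chrX:106186850-106187149 (plus strand, Pgk1), chr7:46845554-46845853 (plus strand, Ldha), chr6:124814109-124814408 (minus strand, Tpi1), chr2:71872974-71873273 (plus strand, Pdk1), chr10:59323046-59323345 (plus strand, P4ha1), chr12:54203825-54204124 (minus strand, Egln3).
Pgk1: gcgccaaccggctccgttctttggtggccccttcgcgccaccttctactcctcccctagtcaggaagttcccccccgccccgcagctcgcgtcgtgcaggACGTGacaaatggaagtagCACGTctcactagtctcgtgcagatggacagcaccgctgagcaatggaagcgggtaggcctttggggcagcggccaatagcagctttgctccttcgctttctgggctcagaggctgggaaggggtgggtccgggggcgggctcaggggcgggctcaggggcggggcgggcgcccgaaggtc
Ldha: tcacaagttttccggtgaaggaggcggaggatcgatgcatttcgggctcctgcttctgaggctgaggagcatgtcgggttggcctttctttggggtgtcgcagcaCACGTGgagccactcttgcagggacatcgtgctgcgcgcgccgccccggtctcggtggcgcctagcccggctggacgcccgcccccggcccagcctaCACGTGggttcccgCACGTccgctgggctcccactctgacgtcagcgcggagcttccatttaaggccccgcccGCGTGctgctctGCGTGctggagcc
Tpi1: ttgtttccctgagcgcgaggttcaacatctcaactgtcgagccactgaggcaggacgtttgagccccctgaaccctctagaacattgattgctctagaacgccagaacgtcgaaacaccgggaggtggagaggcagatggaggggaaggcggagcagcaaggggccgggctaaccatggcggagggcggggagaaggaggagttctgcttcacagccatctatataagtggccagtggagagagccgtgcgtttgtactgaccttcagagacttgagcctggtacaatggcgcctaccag
Pdk1: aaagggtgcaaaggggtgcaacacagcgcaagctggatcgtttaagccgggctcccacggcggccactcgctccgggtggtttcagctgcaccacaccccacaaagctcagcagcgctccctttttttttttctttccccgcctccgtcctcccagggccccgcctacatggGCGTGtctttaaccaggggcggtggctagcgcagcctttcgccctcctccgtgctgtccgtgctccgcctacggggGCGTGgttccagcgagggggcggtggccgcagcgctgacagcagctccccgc
P4ha1: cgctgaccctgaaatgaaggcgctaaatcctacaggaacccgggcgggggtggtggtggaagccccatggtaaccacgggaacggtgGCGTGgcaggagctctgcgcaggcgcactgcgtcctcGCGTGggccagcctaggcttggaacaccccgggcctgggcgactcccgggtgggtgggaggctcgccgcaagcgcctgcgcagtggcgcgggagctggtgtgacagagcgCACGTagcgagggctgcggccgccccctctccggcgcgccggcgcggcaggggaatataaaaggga
Egln3: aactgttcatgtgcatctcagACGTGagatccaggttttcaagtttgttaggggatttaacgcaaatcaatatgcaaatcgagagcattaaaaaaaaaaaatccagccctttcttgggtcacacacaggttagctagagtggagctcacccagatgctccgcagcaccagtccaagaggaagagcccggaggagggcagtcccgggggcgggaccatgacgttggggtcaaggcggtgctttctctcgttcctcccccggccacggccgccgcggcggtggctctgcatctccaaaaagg

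ACGTG on either strand stood in a window of 24 of the 32 set members that have one in the table (75.0%), against 21.8% of all 27025 genes. It stood in 14 of 21 glycolytic genes and in 10 of 11 HIF pathway genes. ACGTG or GCGTG stood in 29 of 32 members (90.6%), against 46.7% of all genes, and CACGTG in 6 of 32 (18.8%), against 8.09%. Genes with several windows were counted once, with a match in any window. Of the 5 members that fell in mutant nTregs, Slc2a3 and Bnip3l have no window in the table. GCGTG stood in the Pdk1 window shown, ACGTG and GCGTG in that of P4ha1, and ACGTG in 2 of the 3 windows of Mxi1. A match is a description of the letters and not a binding site. The set was chosen as glycolytic and HIF pathway genes, and all genes were not matched to it for expression or base content. The shares are therefore no test of the set.

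In mutant nTregs, against WT nTregs, 14 of 23 glycolytic genes rose, 1 fell and 8 were not called, with a median log2 fold change of 0.60. The 14 include both Eno1 and Eno1b, which share sequence and are not separate results. Of 13 HIF pathway genes 1 rose, 4 fell and 8 were not called, with a median of -0.10. In all 34.9% of the genes tested were called, 19.3% higher and 15.6% lower, and the median over all genes was 0.04 (edgeR quasi-likelihood test, adjusted p under 0.05). The members whose 3 mutant libraries all lay above the 3 WT libraries numbered 17, and those that all lay below numbered 6, against 25.7% and 22.6% of all genes. The 16 members that missed the threshold had log2 fold changes between -1.34 and 0.40.

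**Figure D1:**
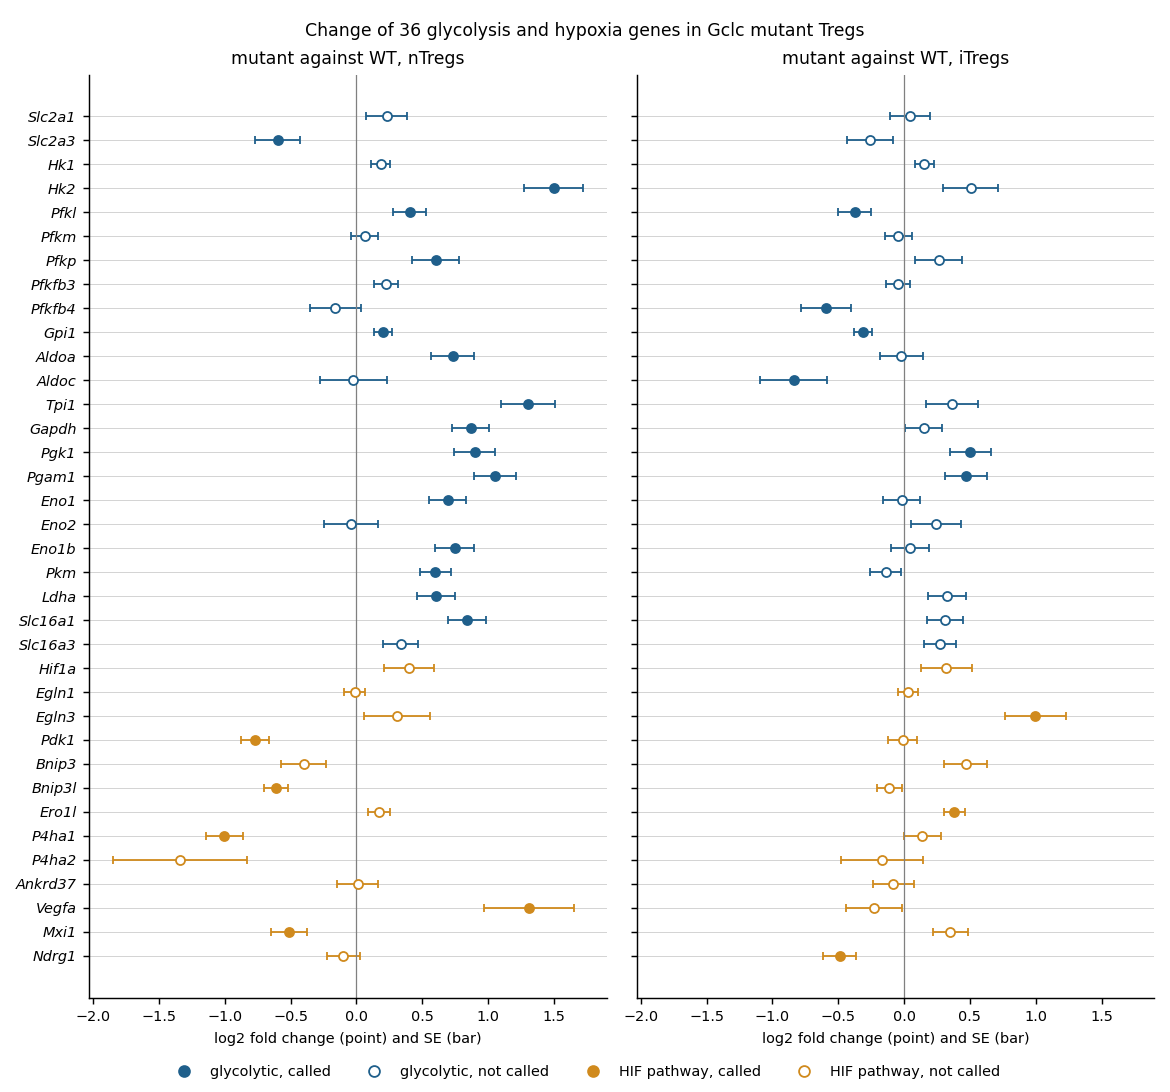
Log2 fold change of mutant over WT for the 36 genes (point, with SE as bar) in nTregs on the left and iTregs on the right, glycolytic genes in blue above HIF pathway genes in orange, filled where the adjusted p was under 0.05. In nTregs 14 glycolytic genes lie to the right of 0 and are filled, and in iTregs 2 do.

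Glucose entry and its first phosphorylation changed unevenly in nTregs. Slc2a3, a high-affinity glucose transporter, was at 103, 60.7 and 57.7 CPM in mutant nTregs, against 99.1, 119 and 117 CPM in WT nTregs. Mutant libraries 2 and 4 lay below all WT libraries and mutant library 1 within them, and the log2 fold change was -0.60 ± 0.17 (adjusted p = 0.0177). Leaving out nTreg mutant library 2 or nTreg WT library 2 ended the call (adjusted p = 0.0507 and 0.0612). Slc2a1, the main glucose transporter of activated T cells, was at 28.4, 19.2 and 17.1 CPM in mutant nTregs, against 16.6, 18.1 and 20.4 CPM in WT nTregs, and these groups overlapped (adjusted p = 0.275). Hk2, the inducible hexokinase (ENSMUSG00000000628, chromosome 6, 82725025 to 82774454, minus strand), was at 32.9, 17.9 and 15.8 CPM in mutant nTregs, against 7.50, 8.62 and 7.41 CPM in WT nTregs. Every mutant library held more than any WT library, and its log2 fold change of 1.5 ± 0.23 was the largest of the glycolytic genes (adjusted p = 0.000616). Hk1, the constitutive hexokinase, was at 107 to 117 CPM in mutant nTregs, against 95.9 to 98.7 CPM in WT nTregs, and missed the threshold (adjusted p = 0.0606).

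Of the genes of the middle steps Gpi1, Pfkp, Pfkl and Aldoa rose, with smaller folds than Hk2. Gpi1, which converts glucose phosphate to fructose phosphate, was at 258, 222 and 234 CPM in mutant nTregs, against 208, 202 and 210 CPM in WT nTregs (log2 fold change 0.20 ± 0.07, adjusted p = 0.0325). Of the phosphofructokinases, which commit sugar to glycolysis, Pfkp had a log2 fold change of 0.60 ± 0.18 (adjusted p = 0.0201) and Pfkl of 0.40 ± 0.13 (adjusted p = 0.0262), and Pfkm was not called. Pfkp was at 232, 125 and 133 CPM in mutant nTregs, against 106 to 110 CPM in WT nTregs. Without nTreg mutant library 1 its log2 fold change was 0.29 ± 0.07 (adjusted p = 0.00596), and leaving out any of the WT nTreg libraries ended its call (adjusted p = 0.0538 to 0.0642). The Pfkl call was lost without nTreg mutant library 1, nTreg WT library 1 or nTreg WT library 2 (adjusted p = 0.0706 to 0.114). The Gpi1 call was lost without the filter on low counts, or without nTreg mutant library 4, any nTreg WT library, iTreg WT library 1 or iTreg WT library 2 (adjusted p = 0.0511 to 0.108). Pfkfb3 and Pfkfb4, which set the level of an activator of phosphofructokinase, were not called. The aldolase Aldoa was at 301, 174 and 180 CPM in mutant nTregs, against 138, 126 and 131 CPM in WT nTregs, a log2 fold change of 0.73 ± 0.16 (adjusted p = 0.00526) and of 0.46 ± 0.08 without nTreg mutant library 1. Its relative Aldoc, at 1.73 to 3.87 CPM over the nTreg libraries, was not called.

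From the triose phosphates to pyruvate the enzymes of the set rose in mutant nTregs, apart from the neuronal enolase Eno2. Tpi1, triose phosphate isomerase (ENSMUSG00000023456, chromosome 6, 124810586 to 124814296, minus strand), was at 159, 81.6 and 81.8 CPM in mutant nTregs, against 43.9, 42.5 and 44.1 CPM in WT nTregs (log2 fold change 1.31 ± 0.20, adjusted p = 0.000757). Gapdh, which oxidises the triose and is often used as a loading control, was at 115, 75.5 and 74.8 CPM in mutant nTregs, against 51.5, 48.2 and 45.9 CPM in WT nTregs (log2 fold change 0.87 ± 0.14, adjusted p = 0.000893). Pgk1, the first ATP-yielding kinase of the chain (ENSMUSG00000062070, chromosome X, 106187100 to 106203699, plus strand), was at 296, 179 and 187 CPM in mutant nTregs, against 130, 119 and 106 CPM in WT nTregs (log2 fold change 0.90 ± 0.16, adjusted p = 0.00138). The mutase Pgam1 was at 180, 105 and 110 CPM in mutant nTregs, against 67.3, 62.5 and 60.8 CPM in WT nTregs (log2 fold change 1.05 ± 0.16, adjusted p = 0.0007). In each of these 4 genes nTreg mutant library 1 was the highest, and mutant libraries 2 and 4 still lay above every WT library.

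The enolases Eno1 and Eno1b had log2 fold changes of 0.69 ± 0.14 and 0.75 ± 0.15 in mutant over WT nTregs. They cannot be counted as separate results, since 85.2% of the 50-base words in Eno1b transcripts also occur in other genes, most of them in Eno1, and reads that align to several places were counted at each. The neuronal enolase Eno2 stayed at 4.24 to 6.18 CPM in mutant nTregs and 4.78 to 6.37 CPM in WT nTregs and was not called. Eno3, an enolase outside the set, was called lower in mutant nTregs (log2 fold change -0.58, adjusted p = 0.00612), with 0 of 19 alternatives losing the call. Pkm, pyruvate kinase, was at 594, 425 and 415 CPM in mutant nTregs, against 310, 314 and 323 CPM in WT nTregs, a log2 fold change of 0.60 ± 0.12 (adjusted p = 0.00273). Values of Pgk1, Pgam1, Pkm and Gapdh are also uncertain for the same reason, with 53.9%, 36.2%, 25.8% and 24.7% of their words shared with other genes, many of them pseudogenes. The same holds for Eno1 with 26.0% and, of the HIF pathway genes, for Bnip3l with 20.8%, all with its pseudogene Bnip3l-ps, and Bnip3 with 16.5%. Hk2, Slc16a1, Pdk1 and P4ha1 share none, Tpi1 shares 4.18% and Ldha 9.03%.

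RNA of Ldha and Slc16a1 rose too. Ldha, the lactate dehydrogenase subunit that favours lactate formation, was at 623, 387 and 396 CPM in mutant nTregs, against 325, 297 and 302 CPM in WT nTregs (log2 fold change 0.60 ± 0.14, adjusted p = 0.00697, and 0.37 ± 0.06 without nTreg mutant library 1). Slc16a1, which carries lactate and pyruvate across the membrane, was at 85.4, 53.8 and 53.9 CPM in mutant nTregs, against 37.5, 36.9 and 33.4 CPM in WT nTregs (log2 fold change 0.84 ± 0.14, adjusted p = 0.00118). Slc16a3, the exporter typical of glycolytic cells, was at 5.38 to 6.92 CPM in mutant nTregs, against 4.78 to 5.29 CPM in WT nTregs, and missed the threshold (adjusted p = 0.0652).

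**Figure D2:**
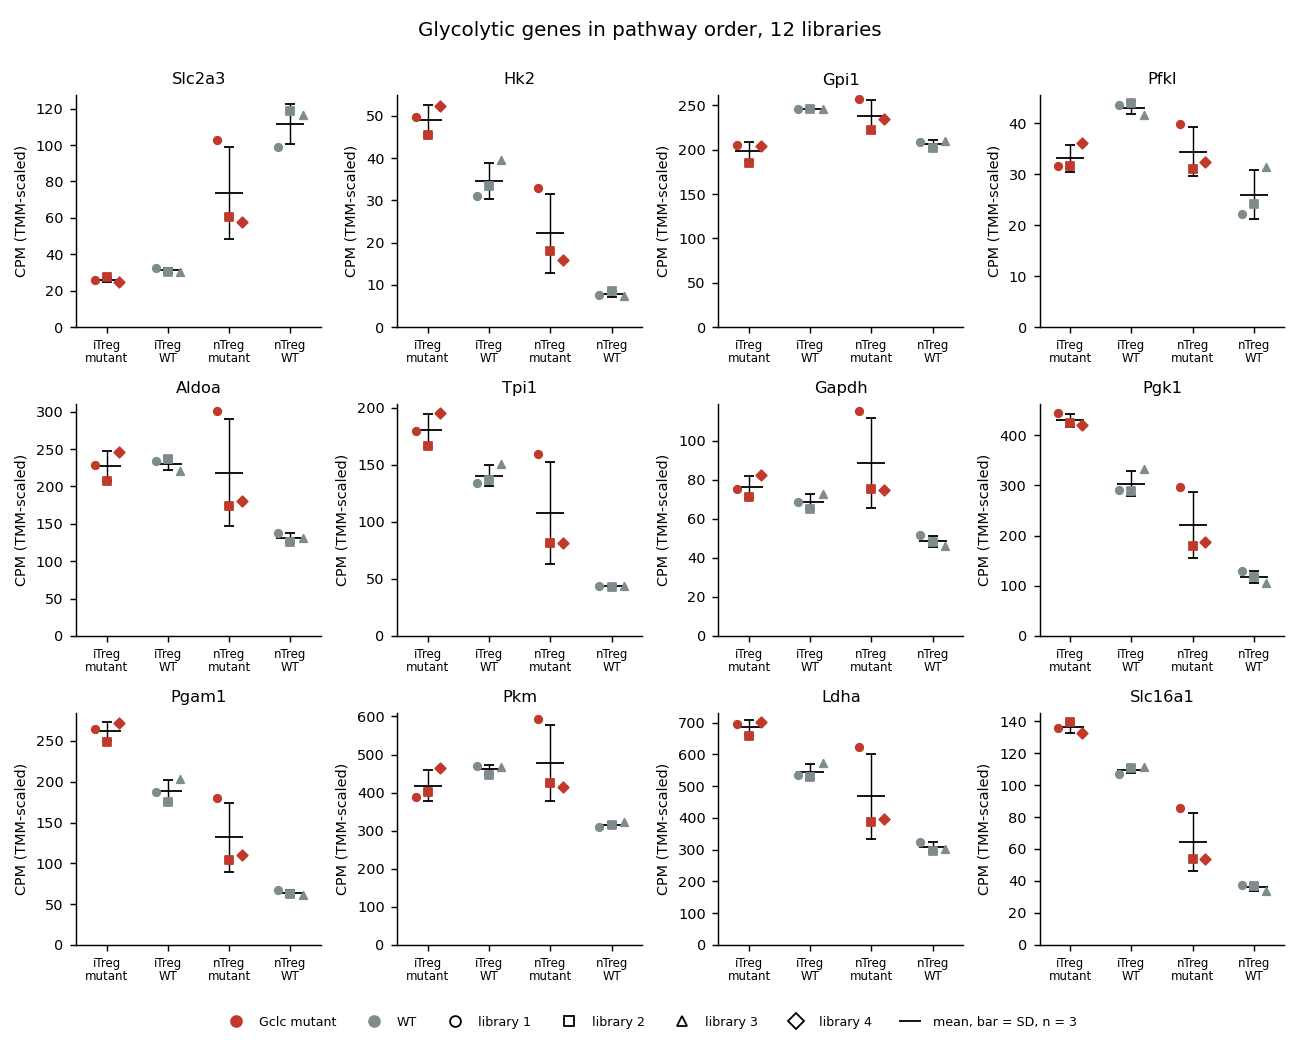
CPM of 12 glycolytic genes in pathway order in each of the 12 libraries (points, marker shape by library number), mutant in red and WT in grey, with the mean and SD of each group. In nTregs the mutant libraries of Hk2, Tpi1, Gapdh, Pgk1, Pgam1, Pkm, Ldha and Slc16a1 lie above the WT libraries, and library 1 (circle) is the highest of the mutants.

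The rise was largest in the library with the CD8 and NK markers and was present without it. The 16 glycolytic enzymes other than Eno1b together took 3316, 2171 and 2225 CPM in mutant nTregs, against 1695, 1626 and 1664 CPM in WT nTregs. The CD8 and NK markers took 1356, 197 and 171 CPM in the same mutant libraries, against 81.3, 83.4 and 71.1 CPM in WT nTregs. Of the 10 markers 8 were called higher, among them Cd8a and Nkg7, and none was at 0. Without nTreg mutant library 1, log2 fold changes of mutant over WT nTregs were 1.14 ± 0.12 for Hk2, 0.94 ± 0.07 for Tpi1, 0.79 ± 0.07 for Pgam1, 0.66 ± 0.08 for Pgk1 and 0.66 ± 0.08 for Gapdh. Their adjusted p-values were then at most 0.000151. Of the 15 glycolytic genes called with all libraries, Pfkl alone lost its call without this library. The marker sums of nTreg mutant libraries 2 and 4 also lay above those of WT nTregs, and the part of such cells in the change was not tested.

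**Figure D3:**
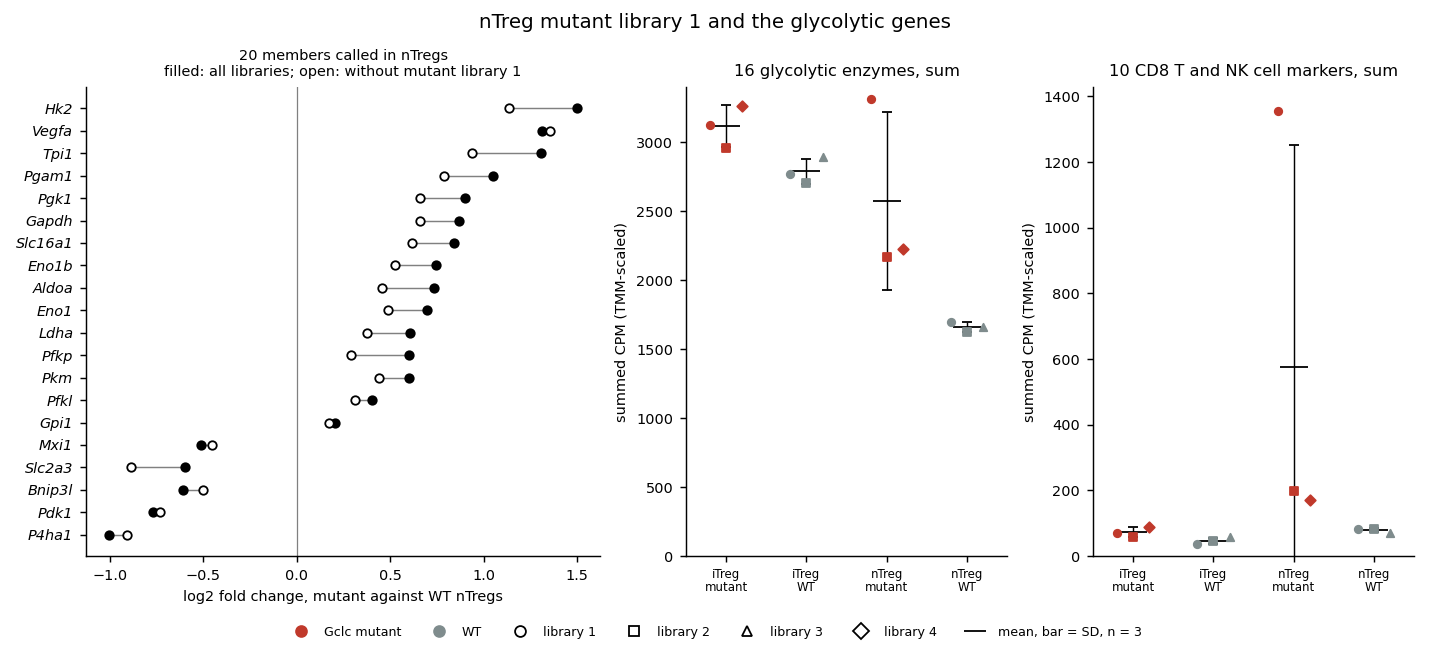
Left, log2 fold change of mutant over WT nTregs for the 20 called members with all libraries (filled) and without nTreg mutant library 1 (open). Middle and right, summed CPM of 16 glycolytic enzymes and of 10 CD8 T and NK cell markers in each library, with group mean and SD (the lower bar of mutant nTregs at right is cut at 0). Leaving the library out moves the glycolytic points toward 0 without crossing it, and Slc2a3 away from 0.

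Markers of other cells differed less evenly. In mutant nTregs, against WT nTregs, the summed level of 8 B cell markers was 254 to 475 CPM against 331 to 535 CPM. Of 10 myeloid markers the sum was 49.4 to 81.3 CPM against 36.2 to 37.4 CPM, of 7 erythroid markers 180 to 904 CPM against 111 to 389 CPM, and of 4 plasma cell markers 17.1 to 57.0 CPM against 50.6 to 84.5 CPM. The 8 Treg and CD4 T cell markers summed to 2699 to 3329 CPM in mutant nTregs, against 3656 to 3995 CPM in WT nTregs. In iTregs of both genotypes the B cell, myeloid, plasma cell and erythroid sums reached 8.23 CPM at most. The part of these cells in the nTreg changes was not tested.

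The 4 HIF pathway genes that fell in mutant nTregs were P4ha1, Pdk1, Bnip3l and Mxi1. P4ha1, a collagen prolyl hydroxylase subunit (ENSMUSG00000019916, chromosome 10, 59323296 to 59373304, plus strand), was at 37.6, 37.6 and 49.4 CPM in mutant nTregs, against 102, 78.2 and 69.1 CPM in WT nTregs (log2 fold change -1.0 ± 0.14, adjusted p = 0.000421). Pdk1, which blocks entry of pyruvate into mitochondrial oxidation (ENSMUSG00000006494, chromosome 2, 71873224 to 71903858, plus strand), was at 67.4, 65.6 and 72.0 CPM in mutant nTregs, against 113, 113 and 124 CPM in WT nTregs (log2 fold change -0.77 ± 0.11, adjusted p = 0.000441). Bnip3l, a receptor for the removal of mitochondria, was at 86.2, 96.1 and 111 CPM in mutant nTregs, against 155, 145 and 148 CPM in WT nTregs (log2 fold change -0.61 ± 0.09, adjusted p = 0.000665). Mxi1, an antagonist of MYC, was at 14.3, 15.1 and 15.2 CPM in mutant nTregs, against 21.8, 21.2 and 20.6 CPM in WT nTregs (log2 fold change -0.51 ± 0.14, adjusted p = 0.0118). In all 4 genes the mutant and WT libraries did not overlap, which 22.6% of all genes also showed in this direction. Without nTreg mutant library 1 the log2 fold changes were -0.91 for P4ha1, -0.73 for Pdk1, -0.50 for Bnip3l and -0.46 for Mxi1, all still called. Bnip3, its relative, was at 4.01 to 4.65 CPM in mutant nTregs and 5.49 to 6.08 CPM in WT nTregs and missed the threshold (adjusted p = 0.0872).

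Of the oxygen-sensing genes, those in the set (Hif1a, Egln1 and Egln3) were not called in nTregs. In a wider list of HIF pathway genes, the HIF beta subunit gene Arnt was called lower (log2 fold change -0.34, adjusted p = 0.00308). Hif1an, a HIF hydroxylase, was also called lower (-0.21, adjusted p = 0.0136). Epas1, another HIF alpha subunit, was called higher (1.71, adjusted p = 0.0322). The call of Hif1an was lost in 2 of 19 alternatives. That of Epas1 was lost in 5 of 19, among them without nTreg mutant library 1 and without any nTreg WT library (adjusted p = 0.0709 to 0.237). Over the alternatives the log2 fold change of Epas1 ranged from 0.58 to 2.14. Hif1a, the regulated HIF subunit, was at 511, 265 and 294 CPM in mutant nTregs, against 296, 281 and 233 CPM in WT nTregs, with mutant libraries 2 and 4 within the WT range and mutant library 1 above it (adjusted p = 0.12). Egln1, the main HIF prolyl hydroxylase, was at 42.6 to 51.8 CPM in mutant nTregs and 46.6 to 48.4 CPM in WT nTregs, and Egln3, an inducible hydroxylase, at 5.50 to 11.4 CPM and 6.73 to 7.16 CPM. Vegfa, the angiogenic growth factor, was called higher on few reads: 24, 42 and 18 counts in mutant nTregs, against 12, 4 and 12 counts in WT nTregs (log2 fold change 1.31 ± 0.34, adjusted p = 0.0107). P4ha2, the relative of P4ha1, had 5, 6 and 1 counts in mutant nTregs and 11, 9 and 6 counts in WT nTregs and was not called, and at this depth no firmer statement on it is possible. Ero1l, which drives disulfide formation, Ankrd37 and Ndrg1 were not called either.

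**Figure D4:**
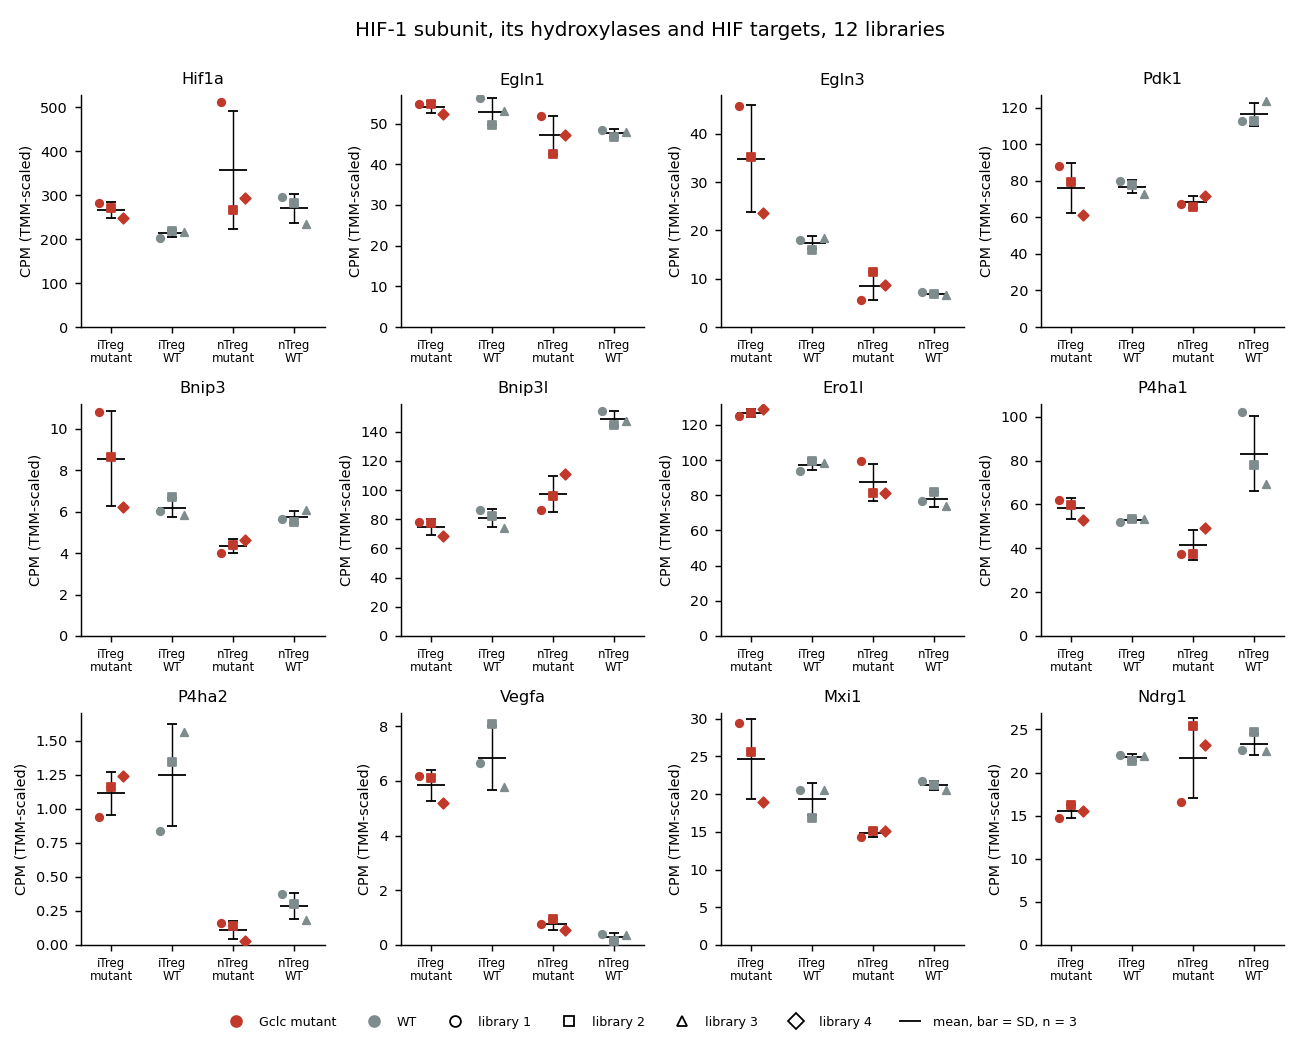
CPM of 12 HIF pathway genes in each of the 12 libraries (points, marker shape by library number), mutant in red and WT in grey, with the mean and SD of each group. Pdk1, Bnip3l, P4ha1 and Mxi1 are lower in mutant than in WT nTregs, and Egln3 and Ero1l are higher in mutant than in WT iTregs.

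In mutant iTregs 9 of the 36 genes were called, in both directions, a share close to the 25.4% of all genes called. Of 23 glycolytic genes 2 rose and 4 fell, with a median log2 fold change of 0.05, and of 13 HIF pathway genes 2 rose and 1 fell, with a median of 0.03. Of all genes 14.0% were called higher and 11.4% lower, with a median of 0.04. The members whose genotypes did not overlap numbered 10 higher and 6 lower in the mutant, against 26.8% and 19.7% of all genes. The 27 uncalled members had log2 fold changes between -0.26 and 0.51. The count of members called was 2 without iTreg mutant library 1, 4 without iTreg mutant library 2, 3 without iTreg WT library 1, 3 without iTreg WT library 2 and 16 without nTreg mutant library 1, which enters through the shared estimate of spread. Without that library 7 glycolytic genes were called higher and 5 lower, since Hk2 (0.46), Pfkp (0.22), Tpi1 (0.32), Ldha (0.28) and Slc16a1 (0.27) were then called higher and Slc2a3 (-0.30) lower (log2 fold changes, adjusted p = 0.00212 to 0.0123). The split was also 7 and 5 with the iTreg libraries alone. The CD8 and NK marker sum was 71.0, 59.0 and 89.3 CPM in mutant iTregs, against 37.9, 44.9 and 56.9 CPM in WT iTregs, without overlap. Of the 10 markers 0 were called, 6 had positive and 3 negative log2 fold changes, and the median was 0.15. Most of the gap between the sums lay in Gzmb, and without it the groups overlapped. Among these markers Gzmb, a protease of cytotoxic cells that activated T cells also make, was at 26.2, 19.6 and 33.7 CPM in mutant iTregs, against 2.42, 3.41 and 9.65 CPM in WT iTregs (adjusted p = 0.0731). Their part in the iTreg changes was not tested.

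Pgk1 and Pgam1 were the glycolytic genes called higher in mutants of both kinds. Pgk1 was at 445, 425 and 421 CPM in mutant iTregs, against 290, 288 and 332 CPM in WT iTregs (log2 fold change 0.50 ± 0.16, adjusted p = 0.0336). Pgam1 was at 264, 249 and 272 CPM in mutant iTregs, against 188, 176 and 203 CPM in WT iTregs (log2 fold change 0.47 ± 0.16, adjusted p = 0.0464). Neither pair of groups overlapped. The Pgk1 call was lost without any iTreg mutant library, iTreg WT library 1 or 2, or nTreg WT library 2 (adjusted p = 0.0502 to 0.124). The Pgam1 call was lost without any iTreg library or any nTreg WT library (adjusted p = 0.0608 to 0.154), and also when scaled by library size alone (adjusted p = 0.0721) or with a filter of 1 CPM in 3 libraries (adjusted p = 0.0555).

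The glycolytic genes called lower in mutant iTregs were Gpi1, Pfkl, Pfkfb4 and Aldoc. Gpi1 was at 205, 185 and 204 CPM in mutant iTregs, against 246, 246 and 246 CPM in WT iTregs (log2 fold change -0.31 ± 0.07, adjusted p = 0.00698), a call kept in every alternative run. Pfkl was at 31.7, 31.7 and 36.2 CPM in mutant iTregs, against 43.6, 44.0 and 41.6 CPM in WT iTregs (log2 fold change -0.38 ± 0.13, adjusted p = 0.0442). Pfkfb4 was at 4.47, 4.33 and 5.62 CPM in mutant iTregs, against 7.21, 7.70 and 6.86 CPM in WT iTregs (log2 fold change -0.59 ± 0.19, adjusted p = 0.0368). Aldoc was at 2.41, 1.88 and 1.88 CPM in mutant iTregs, against 3.68, 3.24 and 4.13 CPM in WT iTregs (log2 fold change -0.84 ± 0.26, adjusted p = 0.0317). The libraries of the genotypes did not overlap in these 4 genes, against 19.7% of all genes that lay wholly lower. The Pfkl call was lost without iTreg mutant library 1 or 2, any iTreg WT library or nTreg WT library 2 (adjusted p = 0.0571 to 0.135). That of Pfkfb4 was lost without iTreg mutant library 1 or 2 or any iTreg WT library (adjusted p = 0.0534 to 0.117), and that of Aldoc without any iTreg library (adjusted p = 0.0528 to 0.0950). Hk2, at 49.6, 45.4 and 52.3 CPM in mutant iTregs and 31.0, 33.3 and 39.4 CPM in WT iTregs, did not overlap but missed the threshold (adjusted p = 0.0904). Pfkp likewise lay wholly higher in mutant iTregs, with a log2 fold change of 0.26 ± 0.18 (adjusted p = 0.297).

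Of the HIF pathway genes in iTregs, Egln3 changed most. Egln3 (ENSMUSG00000035105, chromosome 12, 54178981 to 54203860, minus strand) was at 45.7, 35.3 and 23.6 CPM in mutant iTregs, against 18, 16 and 18.4 CPM in WT iTregs. Mutant libraries were spread widely yet all lay above WT, with a log2 fold change of 1.0 ± 0.23 (adjusted p = 0.0105) that lost its call without iTreg mutant library 1 (0.75 on the log2 scale, adjusted p = 0.0523) or without iTreg WT library 2 (0.94 on the log2 scale, adjusted p = 0.0511). Ero1l was at 125, 127 and 129 CPM in mutant iTregs, against 93.8, 99.7 and 98.6 CPM in WT iTregs (log2 fold change 0.38 ± 0.08, adjusted p = 0.00615), a call kept in every alternative run. Ndrg1, a stress and differentiation gene induced by hypoxia, was at 14.7, 16.2 and 15.5 CPM in mutant iTregs, against 22.1, 21.3 and 21.9 CPM in WT iTregs (log2 fold change -0.49 ± 0.13, adjusted p = 0.0157), and its call was lost without iTreg mutant library 1 or iTreg WT library 1 (adjusted p = 0.0563 to 0.0621). P4ha1 and Pdk1 were not called in iTregs (adjusted p = 0.487 and 0.969).

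The effect of the mutation itself differed between nTregs and iTregs in 15 members, 10 with a larger and 5 with a smaller log2 fold change in nTregs, while 13.3% of all genes differed, 7.18% and 6.12% in these directions. Of the 10, 9 were glycolytic and all 5 were HIF pathway genes. The 9 include both Eno1 and Eno1b, which are not separate results. For Pfkl the log2 fold change was 0.40 in nTregs and -0.38 in iTregs, a difference of 0.78 ± 0.18 (adjusted p = 0.0158), and for Gpi1 it was 0.20 and -0.31, a difference of 0.51 ± 0.09 (adjusted p = 0.00654). For Pkm it was 0.60 and -0.14, a difference of 0.74 ± 0.17 (adjusted p = 0.0157). For P4ha1 it was -1.0 and 0.14, a difference of -1.14 ± 0.19 (adjusted p = 0.00504), for Pdk1 -0.77 and -0.01, a difference of -0.76 ± 0.15 (adjusted p = 0.00922), and for Mxi1 -0.51 and 0.35, a difference of -0.86 ± 0.19 (adjusted p = 0.0135). These 6 calls held in every alternative run.

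The differences of Hk2, Aldoa, Tpi1, Gapdh, Eno1, Eno1b, Bnip3, Bnip3l and Vegfa were called with all libraries and were less stable. Those of Hk2, Aldoa and Tpi1 were lost without any iTreg library or any nTreg WT library (adjusted p = 0.0508 to 0.116). Those of Gapdh, Eno1 and Eno1b were lost without any of the same libraries save iTreg mutant library 4 (adjusted p = 0.0545 to 0.102). That of Bnip3 was lost without these libraries or nTreg mutant library 1 (adjusted p = 0.0543 to 0.0744). That of Bnip3l was lost without iTreg mutant library 1 or 2, iTreg WT library 2 or 3, nTreg mutant library 1 or nTreg WT library 1 or 2 (adjusted p = 0.0504 to 0.0744), and that of Vegfa without iTreg mutant library 1 or 2, iTreg WT library 1 or 2, nTreg mutant library 2 or nTreg WT library 2 (adjusted p = 0.0504 to 0.0678). Scaled by library size alone, the differences of Bnip3 and Bnip3l were -0.72 (adjusted p = 0.0523) and -0.36 (adjusted p = 0.0871). Without nTreg mutant library 1 the difference of Tpi1 was 0.62, against 0.94 with it. With scaling by library size alone, 82.2% of all called differences were higher in nTregs, against 54.0% with TMM, and the median over all genes was 0.14, against 0.003.

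In WT, most glycolytic genes were higher in Tregs made in culture than in sorted ones. The comparisons of iTregs with nTregs use the same libraries as those above and so are not independent of them. WT iTregs were higher than WT nTregs in 17 of 23 glycolytic genes and lower in 1, against 33.7% and 35.7% of all genes (69.5% called in all). Eno1 and Eno1b are both among the 17. Of the 36 members 22 lay wholly higher and 7 wholly lower in WT iTregs, against 37.9% and 39.9% of all genes. Hk2 was at 31.0 to 39.4 CPM in WT iTregs, against 7.41 to 8.62 CPM in WT nTregs (log2 fold change 2.14 ± 0.23), Tpi1 at 134 to 151 CPM against 42.5 to 44.1 CPM (1.69 ± 0.21), and Slc16a1 at 107 to 112 CPM against 33.4 to 37.5 CPM (1.61 ± 0.14). Slc2a3 was the glycolytic gene that was lower in iTregs, at 30.0 to 32.7 CPM in WT iTregs, against 99.1 to 119 CPM in WT nTregs (-1.84 ± 0.18). Among HIF pathway genes Vegfa was at 5.78 to 8.07 CPM in WT iTregs, against 0.13 to 0.41 CPM in WT nTregs (4.46 ± 0.29), and Egln3 at 16 to 18.4 CPM against 6.73 to 7.16 CPM (1.34 ± 0.25). Bnip3l (-0.88 ± 0.09), P4ha1 (-0.66 ± 0.14) and Pdk1 (-0.60 ± 0.11) were lower in WT iTregs. The call of Pfkfb4, the weakest of the 17, was lost without 8 of the libraries, namely iTreg mutant 1 or 2, any iTreg WT, nTreg mutant 4 or nTreg WT 1 or 2 (adjusted p = 0.0521 to 0.138), and also by DESeq2, with either other scaling or with a filter of 1 CPM in 3 libraries (adjusted p = 0.0505 to 0.0995).

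Mutant iTregs were higher than mutant nTregs in 9 of 23 glycolytic genes and lower in 3 (Slc2a3, Pfkfb3 and Gpi1), against 33.2% and 35.0% of all genes (68.2% called in all). They were higher in 8 of 13 HIF pathway genes and lower in 2 (Bnip3l and Ndrg1). Of the 36 members 16 lay wholly higher and 6 wholly lower in mutant iTregs, against 33.6% and 35.2% of all genes. P4ha1 was at 62.0, 59.7 and 52.9 CPM in mutant iTregs, against 37.6, 37.6 and 49.4 CPM in mutant nTregs (log2 fold change 0.49 ± 0.14, adjusted p = 0.00703). Egln3 had a log2 fold change of 2.03 ± 0.24 in mutant iTregs over mutant nTregs. Scaled by library size alone, 36% of all called genes were higher in mutant iTregs, against 48.7% with TMM, the median over all genes was -0.20, against -0.02, and 8 glycolytic members were higher and 8 lower. With that scaling the log2 fold changes of P4ha1, Slc2a1 and Egln1 were 0.30, 0.26 and 0.01, and their calls were lost (adjusted p = 0.058, 0.136 and 0.901). The Slc2a1 call ended when nTreg mutant library 2 or 4 or iTreg mutant library 4 was left out (adjusted p = 0.0736 to 0.0885). That of Egln1 was lost without iTreg mutant library 1 or 2, nTreg mutant library 2 or 4 or nTreg WT library 1 or 2 (adjusted p = 0.0501 to 0.152).

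Shares within the hexokinases, the glucose transporters and the pair of Bnip3 and Bnip3l stood apart between genotypes in both kinds. Those of the phosphofructokinases, Pfkfb enzymes, aldolases and lactate transporters overlapped between genotypes in 1 kind. Levels per length were compared as RPKM, the CPM divided by the deposited gene length in kilobases. Hk2 made up 28.7%, 19.3% and 17.2% of hexokinase RPKM (Hk1 and Hk2) in mutant nTregs, against 10.1%, 11.1% and 9.76% in WT nTregs. In iTregs its share was 39.1%, 39.0% and 40.8% in mutants, against 32.1%, 34.9% and 34.9% in WT. Slc2a1 made up 36.3%, 39.5% and 38.0% of the RPKM of Slc2a1 and Slc2a3 in mutant nTregs, against 25.8%, 23.9% and 26.5% in WT nTregs, and 69.5%, 67.5% and 72.7% in mutant iTregs, against 64.0%, 64.9% and 67.3% in WT iTregs. Hk2 and Slc2a1 shares in mutants lay above those in WT in each kind without overlap, nTreg mutant library 1 included or not. The Pfkl share of the phosphofructokinases was 26.1% to 31.5% in mutant iTregs, against 35.6% to 38.4% in WT iTregs, and overlapped between genotypes in nTregs. The Pfkfb4 share of Pfkfb3 and Pfkfb4 was 10.4% to 11.5% in mutant iTregs, against 15.1% to 15.9% in WT iTregs, and overlapped in nTregs. The Aldoc share of the aldolases overlapped in nTregs and the Slc16a3 share of the lactate transporters in iTregs. These shares are descriptions and were not tested.

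**Figure D5:**
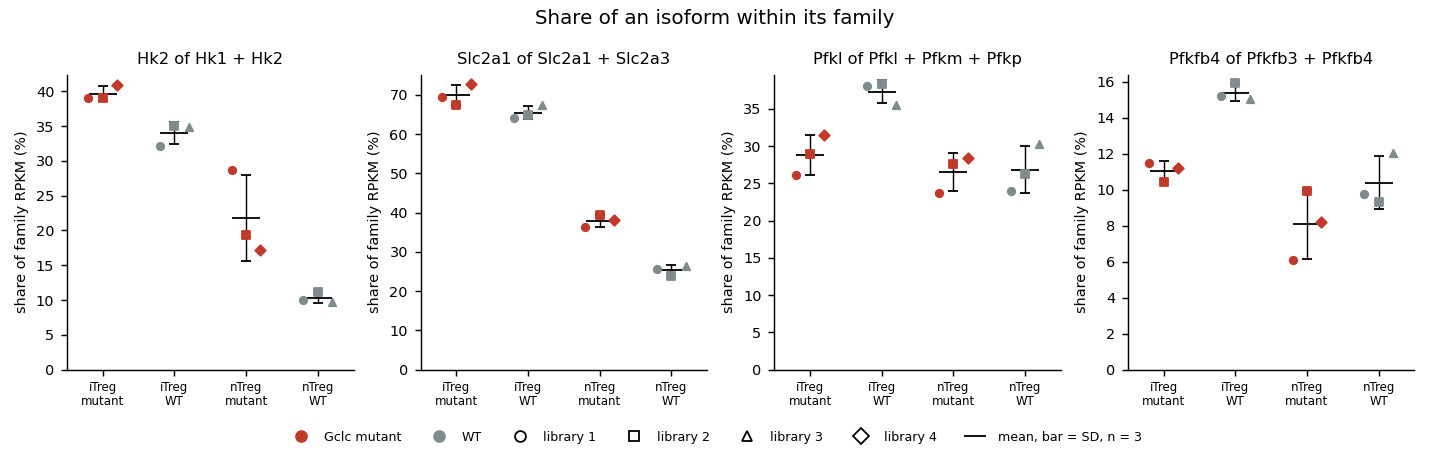
Share of an isoform in the summed RPKM of its family (percent) in each of the 12 libraries, mutant in red and WT in grey, with the mean and SD of each group. The Hk2 share is 17.2% to 28.7% in mutant nTregs, against 9.76% to 11.1% in WT nTregs, and the Pfkl share is lower in mutant than in WT iTregs.

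Per length, Eno1b and Ldha led in all 4 groups. The first place of Eno1b cannot be read as its own level. Of its 50-base words 85.2% also occur in other genes, most of them in Eno1, and shared reads were counted at each place. Its deposited length is 1757 bases, against 5379 for Eno1, so shared reads weigh more per length. Ldha was at 141 ± 40.4 RPKM in mutant nTregs, against 93.1 ± 4.60 RPKM in WT nTregs, and at 207 ± 7.21 RPKM in mutant iTregs, against 165 ± 7.40 RPKM in WT iTregs (SD, n = 3 each). Pgk1 was the next in iTregs, at 192 ± 5.81 RPKM in mutant and 135 ± 11.1 RPKM in WT. P4ha2 was the lowest in every group, at 0.0174 ± 0.011 RPKM in mutant nTregs and 0.0461 ± 0.0152 RPKM in WT nTregs.

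Other genes of the pathways, from lists wider than the set, gave these counts. Of 39 further glycolysis and pyruvate genes 31 were tested. In mutant nTregs 9 rose and 5 fell, against 19.3% and 15.6% of all genes, and in mutant iTregs 11 rose and 1 fell, against 14.0% and 11.4%. In nTregs Pgm1, of the phosphoglucomutase family, rose by 0.61 ± 0.10 on the log2 scale and the pyruvate dehydrogenase kinase Pdk3 by 0.52 ± 0.10. Pdp1, the phosphatase that reactivates pyruvate dehydrogenase, had a log2 fold change of -0.41 ± 0.08 in nTregs and Pfkfb2 of -0.47 ± 0.10. In iTregs the kinase Pdk2 had -1.08 ± 0.19, the glycerol phosphate shuttle enzyme Gpd2 0.67 ± 0.13, Dld, a subunit of pyruvate dehydrogenase, 0.40 ± 0.08, and Mpc1, a subunit of the mitochondrial pyruvate carrier, 0.46 ± 0.10. The kinase genes did not move as a group. In mutant nTregs Pdk1 fell and Pdk3 rose. In mutant iTregs Pdk2 fell, Pdk3 rose (log2 fold change 0.45, adjusted p = 0.00855) and Pdk1 was not called.

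Of 32 further HIF pathway genes 31 were tested, of which 6 rose and 6 fell in mutant nTregs, against 19.3% and 15.6% of all genes, and 8 rose and 5 fell in mutant iTregs, against 14.0% and 11.4%. Plod2, a collagen lysyl hydroxylase, was the first by adjusted p in both. It was at 13.1, 12.6 and 13.1 CPM in mutant nTregs, against 4.51, 3.20 and 3.84 CPM in WT nTregs (log2 fold change 1.74 ± 0.16), and at 84.1, 70.8 and 68.4 CPM in mutant iTregs, against 25.3, 26.3 and 36.5 CPM in WT iTregs (1.34 ± 0.14). In nTregs the secreted hormone Stc2 had a log2 fold change of 1.93 ± 0.26, the lysyl hydroxylase Plod1 of -0.94 ± 0.16 and the histone demethylase Kdm3a of -0.43 ± 0.08. In iTregs Insig2, a brake on sterol synthesis, had 0.45 ± 0.07, the histone demethylase Kdm4b -0.84 ± 0.14 and Hif1an, the asparagine hydroxylase of HIF, -0.31 ± 0.06. The collagen hydroxylases split in mutant nTregs, with Plod2 higher and Plod1 and P4ha1 lower.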

How the data were processed

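RNA-seq gene counts of 12 libraries were used as deposited, 1 file per library. Counting was done by the authors with featureCounts 1.5.2 (Ensembl genes, GRCm38), per the file headers, as reverse-stranded exon counts. A multi-mapping read counted at every alignment, an overlapping one went to its largest overlap, and chimeric fragments were dropped. Reads were aligned to mm10 with STAR 2.5.2b after bcl2fastq 2.18.0.12, per the submitters' processing notes. RNA came from a NucleoSpin kit and libraries from a TruSeq Stranded mRNA kit, per the labels' protocols. Gene lengths are the deposited ones. Symbols came from GENCODE M21, and 49326 of 49671 genes matched.

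Counts were tested with edgeR 4.0.16 (R 4.3.3): filterByExpr (17977 genes), TMM, 1 mean per group over all 12 libraries (8 residual degrees of freedom), quasi-likelihood F-test, two-sided, adjusted by Benjamini-Hochberg across the tested genes of each comparison, called below 0.05. Comparisons were mutant against WT in each kind, the difference of these effects, and iTregs against nTregs in each genotype. Alternatives were RLE scaling, library size alone, no filter, 1 CPM in 3 libraries, DESeq2 1.42.0, each library left out, only the compared libraries, and a block for the replicate number. The fit was tested on simulated data. All 36 members were open to be named, and from each wider list up to 4 genes with the smallest adjusted p in a comparison. Outside that rule, Arnt, Hif1an, Epas1 and Eno3 in nTregs and Pdk3 in iTregs were named after their values were seen. Members and lists were chosen with earlier results of these data known. Shared sequence means 50-letter words of GENCODE M21 transcripts also found in another gene. Replicates differed 4.2 to 47.2 times more than counting noise (chi-square per degree of freedom), so none was taken as a duplicate. Promoters came from RefSeq.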

Additional observations from a re-analysis of the deposited data

Results flagged for a closer look

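In 15 members the change with genotype differed between nTregs and iTregs by a test of the difference itself (edgeR, log2 fold change in nTregs minus that in iTregs). The positive differences were 1.54 for Vegfa, 0.99 for Hk2, 0.94 for Tpi1, 0.78 for Pfkl, 0.75 for Aldoa, 0.74 for Pkm, 0.72 for Gapdh, 0.71 for Eno1, 0.70 for Eno1b and 0.51 for Gpi1. The negative ones were -1.14 for P4ha1, -0.87 for Bnip3, -0.86 for Mxi1, -0.76 for Pdk1 and -0.50 for Bnip3l. The signs of the 2 effects were opposite in Pfkl and Gpi1 with both effects called, while Bnip3 was called in neither kind on its own. Groups of 3 libraries are too small for the gap test of a single outlying value, and nTreg mutant library 1 is described with the results.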

How the results depend on the processing

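No called member changed direction in any alternative. Of the 20 members called in nTregs 14 kept their call in all of them, as did 2 of 9 in iTregs (Gpi1 and Ero1l), 6 of 15 for the difference, 24 of 25 between WT kinds and 19 of 22 between mutant kinds. Over the libraries left out in turn, members called ranged from 16 to 22 in nTregs, 2 to 16 in iTregs, 6 to 18 for the difference, 24 to 27 between WT kinds and 21 to 26 between mutant kinds, and all genes called from 1770 to 6260 in iTregs and 1104 to 3216 for the difference. With the compared libraries alone 16 members were called in iTregs and 15 in nTregs, and the calls of Slc2a3, Pfkl, Pfkp, Gpi1 and Vegfa in nTregs were lost (adjusted p = 0.0501 to 0.0838). Same-numbered libraries showed no common deviation (correlations from -0.213 to 0.106 between kinds of a genotype). With 3 libraries a group this cannot exclude a shared mouse or batch, which the labels do not state. The main fit took the libraries as unpaired. With the replicate number as a block, 17 members were called in nTregs, 6 in iTregs and 6 for the difference, and 3036 genes in iTregs and 1471 for the difference, and the nTreg calls lost were Slc2a3, Gpi1 and Mxi1 (adjusted p = 0.0603 to 0.0777). Scaled by library size alone, genes called higher were 65.4% of calls in nTregs, against 55.4% with TMM, and 35.5% in iTregs, against 55.2%. Of the uncalled members 7 of 16 in nTregs, 10 of 27 in iTregs and 6 of 21 for the difference gained a call somewhere, and 7, 10 and 5 changed sign, none with a call. The causes were not tested. Depth limits Vegfa and P4ha2 in nTregs, at 42 counts or fewer a library.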

Other observations

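Of the 11 further glycolysis and pyruvate genes called higher in mutant iTregs, 7 encode subunits of the pyruvate dehydrogenase complex or of the mitochondrial pyruvate carrier. Apart from Dld and Mpc1 they were picked after their values were seen, and 14.0% of all genes were called higher. Pdha1 was at 275, 270 and 239 CPM in mutant iTregs, against 204, 219 and 223 CPM in WT iTregs (log2 fold change 0.28 ± 0.07, edgeR adjusted p = 0.0111). The others were Dld (0.40 ± 0.08), Dlat (0.32 ± 0.09), Pdhx (0.26 ± 0.08), Pdhb (0.20 ± 0.06), Mpc1 (0.46 ± 0.10) and Mpc2 (0.37 ± 0.08). Over 19 alternatives the calls of Dld, Mpc1 and Mpc2 held in all, while that of Pdha1 was lost in 2 (without iTreg mutant library 1 or iTreg WT library 1, adjusted p = 0.0537 and 0.0693), that of Dlat in 5 (adjusted p = 0.0529 to 0.112) and those of Pdhb and Pdhx in 15 each (adjusted p = 0.0524 to 0.198). In mutant nTregs Dlat (0.29 ± 0.09) and Pdhx (0.28 ± 0.09) were called, and lost in 5 and 7 alternatives. The difference between nTregs and iTregs was called for Pdha1 (-0.36 ± 0.09, adjusted p = 0.0289) and lost in 9 of 18 alternatives.

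Cited2, which competes with HIF for its coactivator, was called in opposite directions, at 15.5, 15.2 and 13.8 CPM in mutant nTregs, against 22.8, 21.3 and 18.9 CPM in WT nTregs (log2 fold change -0.50 ± 0.09), and at 9.30, 9.76 and 8.47 CPM in mutant iTregs, against 7.12, 6.67 and 6.97 CPM in WT iTregs (0.41 ± 0.10). The difference was -0.91 ± 0.14 (adjusted p = 0.00323). Without iTreg WT library 2 the iTreg call was lost (adjusted p = 0.0562), and the difference was called in all 18 alternatives.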
